A study of Mus musculus with 8 samples.

Results

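Cadherins, catenins and the adhesion molecules of nerve cells were followed in the spinal cord of mice with experimental autoimmune encephalomyelitis (EAE), an animal model of multiple sclerosis in which immune cells enter the spinal cord and attack myelin. The members were chosen by a rule on gene symbols, which was set with earlier results of these data known. A probe set of the array was taken when its annotation gave 1 symbol and that symbol named a cadherin (Cdh), protocadherin (Pcdh), desmosomal cadherin (Dsc, Dsg), catenin (Ctnn), contactin (Cntn), neural cell adhesion molecule (Ncam), L1 family member, neurexin, neuroligin, Alcam or Mcam. In all, 37 of the 8251 genes that the array names met this rule. They had 52 of its 12422 probe sets, 25 genes with 1 each and 12 with several. No neurexin, neuroligin or neurofascin probe set was among them. Another 8 probe sets carried the joined symbols of the alpha protocadherin cluster and were kept apart, because their signal cannot be given to 1 gene.

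Whole spinal cord RNA of SJL/J mice was hybridised to 8 Affymetrix MG U74Av2 arrays, 5 for EAE and 3 for healthy controls, and each array held the pooled RNA of 2 female animals aged 8 to 12 weeks. EAE mice had been immunised with a PLP peptide, a fragment of the myelin protein proteolipid protein. They were killed at an average grade of 2.5 by the labels, whereas the study's array methods give a range that starts at this grade. The day was 14 for replicate 1, 12 to 14 for replicate 2, 17 for replicate 3, 14 for replicate 4 and 15.5 for replicate 5. In the study's EAE methods the peptide was emulsified in an adjuvant with mycobacteria, and pertussis toxin was injected as well. Controls received vehicle only and were killed on the same days as EAE mice. Whether that vehicle held adjuvant or toxin is not given, and if it did not, these too cannot be told apart from disease. EAE mice, but not controls, also received murine serum albumin into a vein before death, so disease and albumin cannot be told apart here. The labels put EAE and control arrays 1, 2 and 3 into shared batches, whereas EAE arrays 4 and 5 had batches of their own. All values are log2 signals, in which a step of 1 is a doubling, and 10 EAE and 6 control mice stand behind them. Marker genes of neurons and glia were bright on the control arrays, as in nervous tissue, but they cannot tell spinal cord from brain. Their mean log2 signal was 8.71 to 8.85 over neuronal, 9.60 to 9.70 over astrocyte and 9.29 to 9.55 over oligodendrocyte markers. Array medians lay between 6.08 and 6.13. The number of arrays limits the precision.

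Cadherins are membrane proteins that bind like molecules on the neighbouring cell in the presence of calcium. Inside the cell their tails hold catenins, which link them to actin, and beta-catenin also carries the Wnt signal to the nucleus. Neurons, glia and the blood vessels of the spinal cord each use their own set: VE-cadherin (Cdh5) seals endothelium, type II cadherins and protocadherins sort neurons and synapses, and members of the immunoglobulin superfamily such as contactins, NCAM and L1 guide axons and organise the node of Ranvier. Alcam and Mcam belong to the same superfamily and also serve leukocytes that cross vessel walls.

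More of these transcripts fell than rose in EAE. Of the 52 member probe sets, 8 fell in EAE, which was 15.4% of them against a background of 11.4% over all probe sets, and 2 rose, which was 3.85% against 8.26%. The transcripts that fell were Alcam, Cdh11, Cdh13, Cdh8, Mcam, Cntn1 and, on 2 probe sets, Ctnna2. Those that rose were Pcdh7, on 1 of its 2 probe sets, and Cdh5. The median log2 difference between EAE and control was -0.08 over the members and -0.05 over all probe sets. Among the members 38 had a negative and 14 a positive difference, beside 7747 and 4675 of all 12422 probe sets. The share of members that fell was thus close to that of the array as a whole.

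The calls came from limma with treatment and batch as terms, at a Benjamini-Hochberg adjusted p under 0.05 over all probe sets. In this fit the difference is the mean of EAE minus control within batches 1, 2 and 3, so EAE arrays 4 and 5 add no weight to it. At an unadjusted p under 0.05, 14 members were lower, 26.9% against 20.8% of all probe sets, and 2 were higher, 3.85% against 12.1%. Leaving out either array of batch 3 left 1 member lower (Cdh11, adjusted p = 0.0355) and 0 higher, beside 225 and 521 of all probe sets. Leaving out either array of batch 2 left 4 members lower and 1 higher, beside 571 and 710. A 2-way model without moderated variances, as in the methods of the study, called 0 members at the adjusted threshold. At an unadjusted p under 0.05 it had 10 members lower, 19.2% against 12.7% of all probe sets, and 3 higher, 5.77% against 8.7%.

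**Figure D1:**
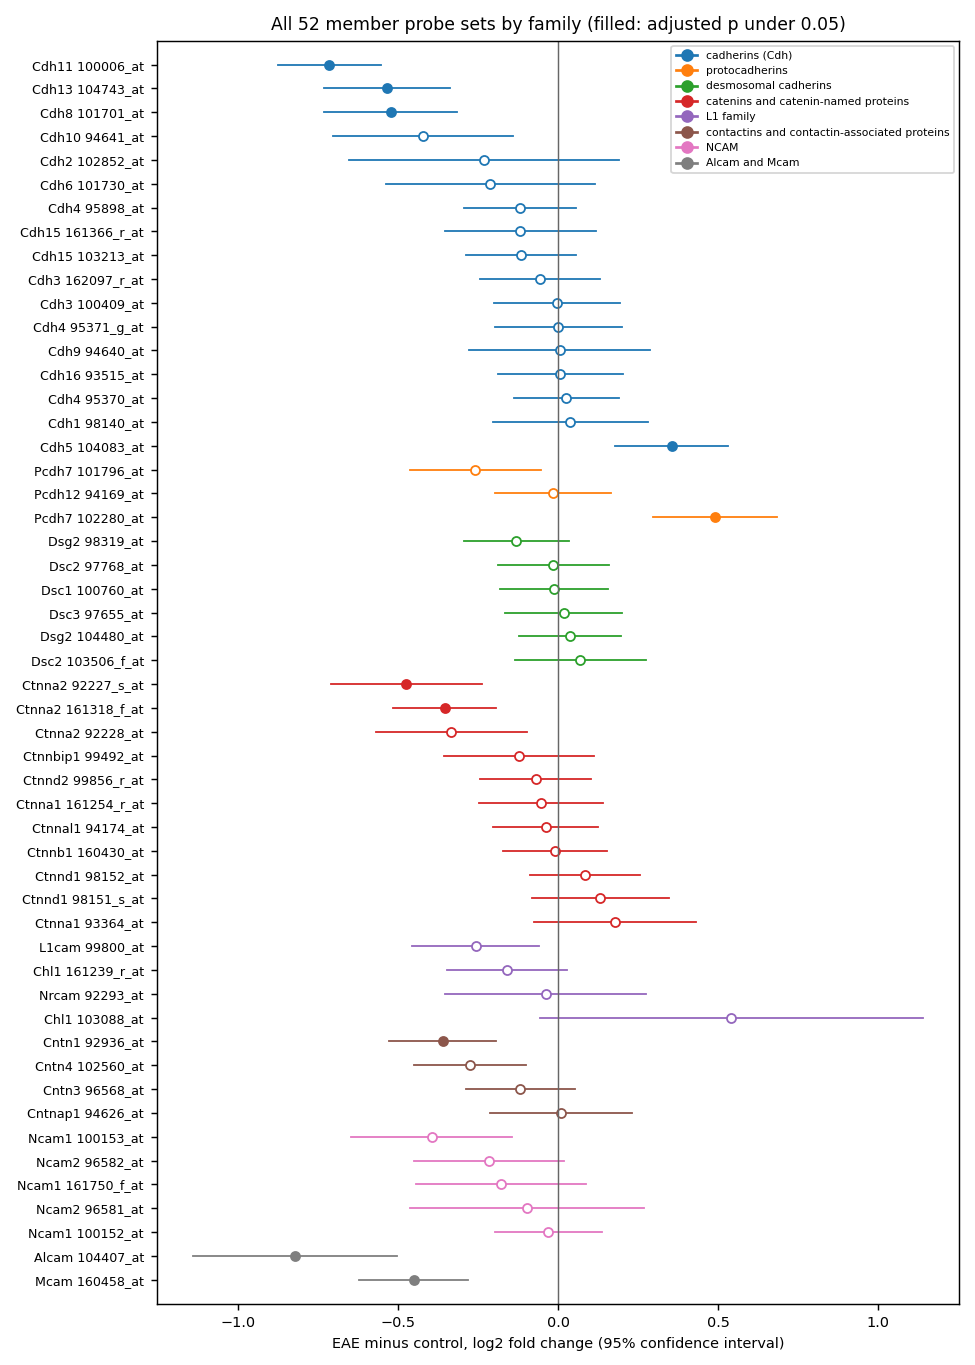
Difference between EAE and control of all 52 member probe sets, grouped by family, on the log2 scale (horizontal axis), with the gene and probe set on the vertical axis. Points are limma estimates and bars are 95% confidence intervals, and filled points had an adjusted p under 0.05. The fit held 5 EAE and 3 control arrays, but EAE arrays 4 and 5 add no weight to points or bars. The 8 filled points left of 0 run from -0.82 for Alcam to -0.35 for a Ctnna2 probe set, and the 2 filled points right of 0 are Cdh5 at 0.35 and Pcdh7 at 0.49.

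A description that needs no model of the variance gave a like picture. On 12 member probe sets all 5 EAE arrays lay below all 3 control arrays, which was 23.1% of the members against 15.1% of all probe sets, and on 2 they lay above, 3.85% against 10.9%. Of these 12, 7 had passed the test. The other 5 were Cdh10, Cdh15 (103213_at), Cntn4, Ctnna2 (92228_at) and the second Pcdh7 probe set (101796_at). Brighter probe sets were called lower more often throughout the array, in 18.6% at or above the median brightness and 4.14% below it. Among the members, 6 of 22 at or above that median and 2 of 30 below it were lower.

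Alcam had the largest fall of the 52 members. Its protein, a partner of the T cell receptor Cd6, lies on neurons and on the endothelium of the blood-brain barrier. Alcam (104407_at) read 7.62, 7.19, 6.95, 6.91 and 6.96 on EAE arrays 1 to 5, a mean of 7.13 ± 0.30 (SD, n = 5), and 8.17, 8.33 and 7.73 on the control arrays, a mean of 8.08 ± 0.31 (SD, n = 3). Every EAE array was below every control array, although EAE array 1 and control array 3 came close to each other. The fall was 0.82 on the log2 scale, with a SE of 0.12 (limma adjusted p = 0.0136), or 1.77-fold with a 95% confidence interval of 1.42 to 2.20. Within batches it ranged from -1.14 in batch 2 to -0.55 in batch 1. Without replicate 3 the difference was -0.84 and the adjusted p 0.0913.

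Mcam fell as well, by less. It is an adhesion molecule of endothelial cells and pericytes that also marks some activated T cells. Mcam (160458_at) read 6.93, 7.10, 7.19, 7.15 and 7.17 on the EAE arrays and 7.34, 7.54 and 7.70 on the control arrays. The groups did not overlap, and the 5 EAE arrays were closer together (SD 0.10) than the 3 controls (SD 0.18). The difference was -0.45 with a SE of 0.066 (limma adjusted p = 0.0125), which is 1.37-fold lower in EAE, and it was -0.40, -0.44 and -0.52 in batches 1, 2 and 3. The adjusted p was 0.0603 without replicate 2 and 0.0837 without replicate 3.

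Among the cadherins proper, 17 probe sets of 13 genes, 3 fell, 1 rose and 13 did not pass, with a median difference of -0.12. Cdh11, a type II cadherin of mesenchymal cells that is also made in the developing and adult nervous system, gave the most even fall across batches of the called members. Cdh11 (100006_at) read 6.15, 6.32, 6.25, 6.34 and 6.46 in EAE, a mean of 6.30 ± 0.12 (SD, n = 5), and 6.87, 7.05 and 6.94 in controls, a mean of 6.95 ± 0.09 (SD, n = 3). All EAE arrays were below all controls by more than the width of either group. The difference was -0.71 with a SE of 0.063 (limma adjusted p = 0.00323), a fall of 1.64-fold (95% confidence interval 1.47 to 1.83), and the differences within batches were -0.72, -0.73 and -0.69. It was the only member still called when replicate 3 was left out, and it lost its call only without moderated variances (adjusted p = 0.106).

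Cdh13, or T-cadherin, is an unusual cadherin that is held in the membrane by a lipid anchor and has no tail for catenins. On the EAE arrays Cdh13 (104743_at) read 6.18, 6.33, 6.21, 6.15 and 6.52, and on the control arrays 6.73, 6.74 and 6.86. EAE array 5 was the nearest to the controls, and the groups did not overlap. The difference was -0.54 with a SE of 0.077 (limma adjusted p = 0.0119), 1.45-fold lower in EAE, and between -0.65 and -0.41 within batches. The adjusted p was 0.0784 without replicate 3.

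Cdh8 is a type II cadherin of neurons that helps to sort their connections. Its probe set (101701_at) read 5.30, 5.28, 5.07, 5.31 and 5.35 in EAE and 5.66, 5.84 and 5.72 in controls. Apart from EAE array 3, which was the lowest, the EAE arrays lay close together, and all were below the controls. The difference was -0.52 with a SE of 0.082 (limma adjusted p = 0.0146), 1.44-fold lower in EAE. It was -0.37, -0.55 and -0.65 in batches 1, 2 and 3, and the adjusted p was 0.0707 without replicate 2 and 0.0903 without replicate 3.

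Cdh5 went the other way. VE-cadherin, its product, is the cadherin of endothelial adherens junctions. Cdh5 (104083_at) read 6.56, 6.82, 6.67, 6.95 and 7.01 in EAE, a mean of 6.80 ± 0.19 (SD, n = 5), and 6.12, 6.50 and 6.37 in controls, a mean of 6.33 ± 0.20 (SD, n = 3). The lowest EAE array was just above the highest control, and these arrays came from different batches. Within batches EAE exceeded control by 0.44, 0.32 and 0.30, and the fitted rise was 0.35 with a SE of 0.069 (limma adjusted p = 0.0261), or 1.28-fold (95% confidence interval 1.13 to 1.44). The call was lost when any 1 of replicates 1, 2 and 3 was left out, with adjusted p values of 0.0808, 0.0957 and 0.106.

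**Figure D2:**
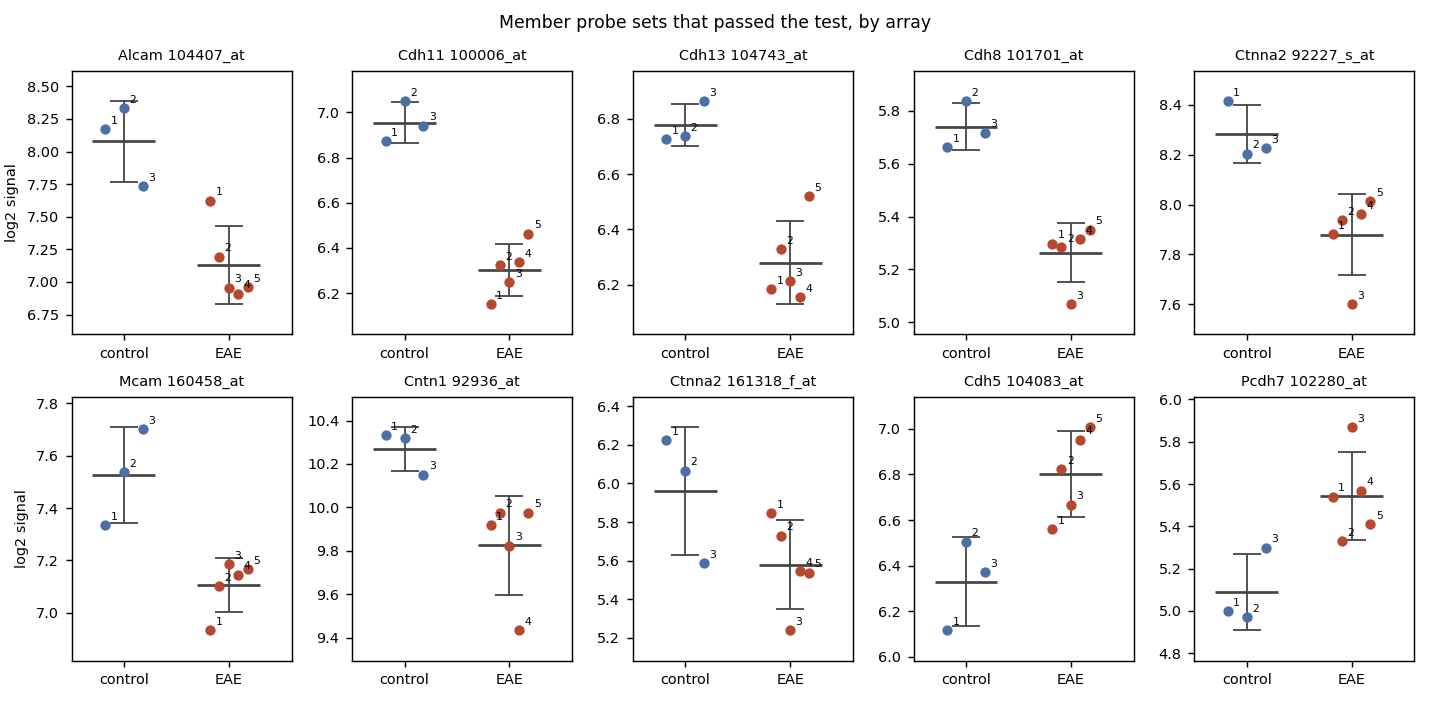
Log2 signal (vertical axes, each panel with its own scale that does not start at 0) of the 10 member probe sets that passed the test, on the 3 control and 5 EAE arrays. Points are arrays with their replicate numbers, the wide bar is the group mean and the whiskers are 1 SD. The groups overlap only for Ctnna2 161318_f_at, where control array 3 read 5.59, below EAE arrays 1 and 2.

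The other cadherins did not pass. N-cadherin (Cdh2), the main classical cadherin of neural tissue, had a difference of -0.23 with a wide SE of 0.16 (limma adjusted p = 0.418), and its EAE arrays ran from 8.38 to 8.84 against 8.61 to 8.98 in controls. Cdh10, a type II cadherin of neurons and of brain endothelium, was lower on all EAE arrays (4.36 to 4.61) than on any control (4.67 to 5.06), with a difference of -0.42 that just missed the threshold (limma adjusted p = 0.0566). Cdh6, of the same type, read -0.21 (limma adjusted p = 0.335) and Cdh9 0.00 (limma adjusted p = 0.986). E-cadherin (Cdh1), P-cadherin (Cdh3) and Cdh16, cadherins of epithelia, had differences between -0.06 and 0.04 on 4 probe sets. Cdh15, the cadherin of muscle and cerebellar granule cells, had differences of -0.12 on both of its probe sets.

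Retinal cadherin (Cdh4), a classical cadherin of neurons, had 3 probe sets that did not share a sign. The brightest (95898_at) read 5.48, 5.66, 5.46, 5.33 and 5.59 in EAE and 5.54, 5.75 and 5.66 in controls, a difference of -0.12 (limma adjusted p = 0.310). A second (95371_g_at) read 4.06 to 4.19 against 4.23, 4.03 and 4.17, and the third (95370_at) 3.91, 3.88, 3.93, 3.96 and 3.92 against 3.84, 3.90 and 3.90. The groups overlapped on all 3, and their 95% confidence intervals together spanned -0.29 to 0.20.

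Pcdh7 was split between its probe sets. It encodes a protocadherin of neurons and heart with long cadherin repeats outside the cell, and no catenin binds to its tail. On the probe set that rose (102280_at) the EAE arrays read 5.54, 5.33, 5.87, 5.57 and 5.41 and the controls 5.00, 4.97 and 5.30. EAE array 2 exceeded control array 3 by only a small margin, and the groups did not overlap. The difference was 0.49 with a SE of 0.075 (limma adjusted p = 0.0140), 1.40-fold higher in EAE, and 0.54, 0.36 and 0.57 within batches. Its adjusted p was 0.0925 without replicate 3.

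The second Pcdh7 probe set (101796_at) read 5.13, 5.20, 5.15, 5.11 and 5.19 in EAE and 5.55, 5.37 and 5.34 in controls. Here all EAE arrays lay below all controls, and the EAE arrays lay close together. The difference was -0.26 with a SE of 0.080 and did not pass (limma adjusted p = 0.0874), although it did without the batch term (adjusted p = 0.0202). Averaged over both probe sets, Pcdh7 gave 0.12 and no call (limma adjusted p = 0.280). The difference between the probe sets was not tested. Pcdh12, a protocadherin of endothelium, read -0.02 (limma adjusted p = 0.916).

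Of the 8 alpha protocadherin probe sets outside the rule, 3 fell and 0 rose. Alpha protocadherins share their last exons, so such a probe set can see many of them, and they are known for giving single neurons a surface identity. Probe set 160610_at ranged from 7.55 to 8.47 in EAE and 8.89 to 9.30 in controls, a fall of 0.96 on the log2 scale (limma adjusted p = 0.0254). Probe sets 101650_at and 97756_s_at fell by 0.66 (limma adjusted p = 0.0259) and 0.54 (limma adjusted p = 0.0175). The other 5 had differences between -0.11 and 0.06.

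**Figure D3:**
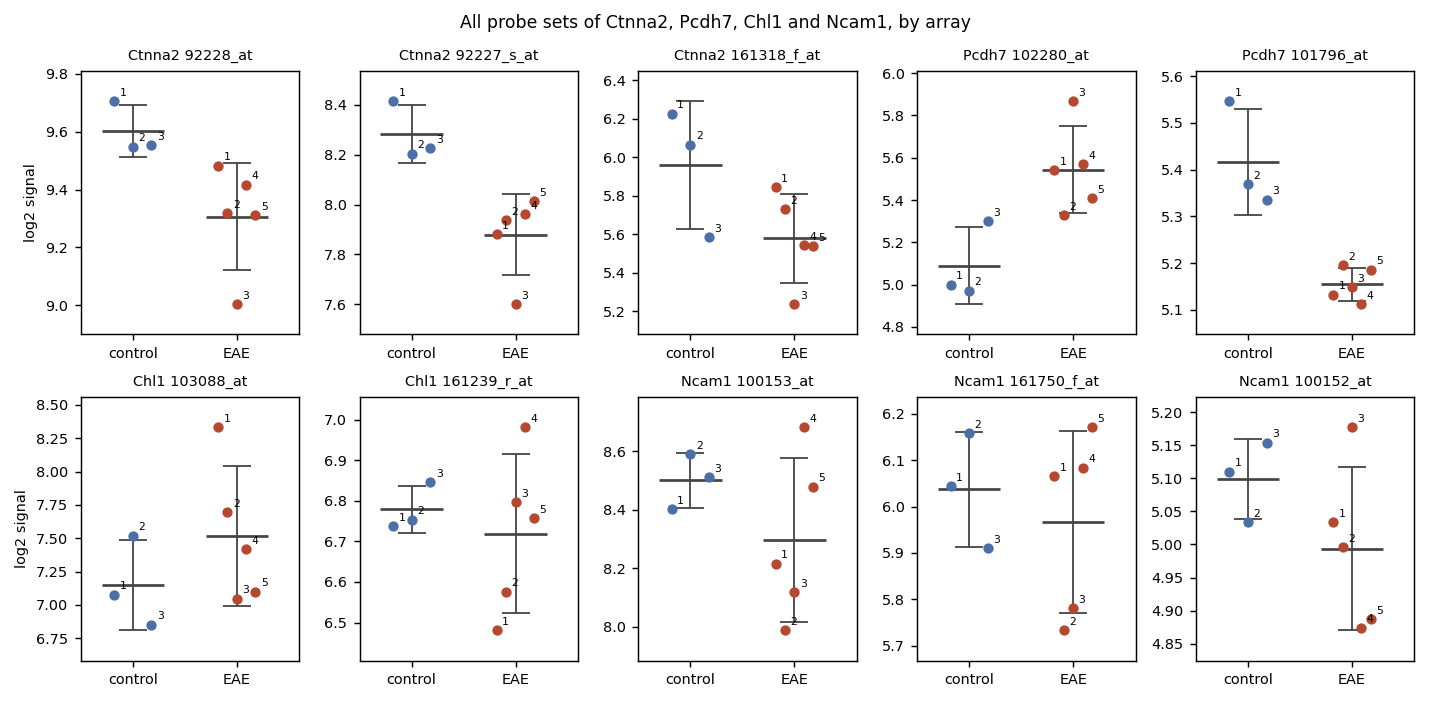
Log2 signal (vertical axes, each panel with its own scale that does not start at 0) of every probe set of Ctnna2, Pcdh7, Chl1 and Ncam1 on the 3 control and 5 EAE arrays. Points are arrays with their replicate numbers, the wide bar is the group mean and the whiskers are 1 SD. The 3 Ctnna2 probe sets are lower in EAE, whereas the Pcdh7 probe sets go opposite ways, 0.49 and -0.26.

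Desmosomal cadherins, which hold together skin, heart and other tissues under strain, gave no call on any of 6 probe sets. Dsc1 and Dsc3 had differences of -0.01 and 0.02. Dsc2 read 4.46, 4.45, 4.36, 4.43 and 4.45 in EAE and 4.25, 4.39 and 4.43 in controls on 1 probe set (103506_f_at, difference 0.07), and 4.27, 4.31, 4.30, 4.27 and 4.18 against 4.25, 4.27 and 4.40 on the other (97768_at, difference -0.01). Dsg2 read 5.98, 6.10, 6.01, 5.90 and 5.80 against 5.94, 6.05 and 5.97 on its brighter probe set (104480_at, difference 0.04), and 4.83, 4.89, 4.89, 4.82 and 5.01 against 4.92, 5.02 and 5.06 on the other (98319_at, difference -0.13). The groups overlapped on all of them, and the 95% confidence intervals of the 6 together spanned -0.30 to 0.27.

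Genes with a catenin symbol (Ctnn), 11 probe sets of 7 genes, had 2 calls, both lower and both for Ctnna2. Its product, alpha-N-catenin, is the neuronal link between cadherins and actin and steadies dendritic spines. Probe set 92227_s_at read 7.88, 7.94, 7.60, 7.96 and 8.01 in EAE and 8.41, 8.20 and 8.22 in controls, a difference of -0.47 with a SE of 0.092 (limma adjusted p = 0.0259). Probe set 161318_f_at read 5.85, 5.73, 5.24, 5.54 and 5.54 against 6.22, 6.07 and 5.59, a difference of -0.35 with a SE of 0.063 (limma adjusted p = 0.0209). The third, 92228_at, was the brightest and read 9.48, 9.32, 9.01, 9.42 and 9.31 against 9.71, 9.55 and 9.55, a difference of -0.33 that did not pass (limma adjusted p = 0.0663).

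All 3 Ctnna2 probe sets were thus lower in EAE, and on 2 of them the groups were apart. On 161318_f_at the groups overlapped because control array 3 was low, and EAE array 3 of the same batch was low as well, so the difference within batches was steady at -0.38, -0.34 and -0.35. That call was lost without the batch as a block (adjusted p = 0.165). It was kept in 7 of 16 other settings, but leaving out EAE array 4 or 5, counted among the 7, only repeats the main fit. The call of 92227_s_at was lost without replicate 1 (adjusted p = 0.0718) or replicate 3 (adjusted p = 0.136). The mean of the 3 probe sets fell by 0.39 on the log2 scale (limma adjusted p = 0.0229, over genes).

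No other Ctnn gene passed. Beta-catenin (Ctnnb1), the partner of cadherin tails and the carrier of Wnt signals, was flat: 10.84, 10.81, 10.68, 10.89 and 11.01 in EAE and 10.87, 10.81 and 10.67 in controls, a difference of -0.01 with a 95% confidence interval from -0.17 to 0.15 (limma adjusted p = 0.942). Ctnna1, the alpha-catenin of most tissues, read 8.69, 8.54, 8.13, 8.53 and 8.34 against 8.27, 8.50 and 8.06 on its bright probe set (93364_at, difference 0.18, limma adjusted p = 0.30) and 6.26, 6.40, 6.26, 6.28 and 6.07 against 6.33, 6.33 and 6.42 on the other (161254_r_at, difference -0.05, limma adjusted p = 0.695). Its groups overlapped on both. Ctnnd1, which binds the part of the cadherin tail next to the membrane, had differences of 0.08 and 0.13, the neural delta-catenin Ctnnd2 -0.07, the alpha-catenin relative Ctnnal1 -0.04, and Ctnnbip1, an inhibitor of beta-catenin, -0.12.

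Contactins are immunoglobulin proteins with a lipid anchor, and Cntn1 joins Cntnap1 on the axon beside the node of Ranvier, where the myelin loops attach. Cntn1 (92936_at) read 9.92, 9.97, 9.82, 9.43 and 9.97 in EAE and 10.33, 10.32 and 10.15 in controls. All EAE arrays were lower than all controls, EAE array 4 by the most. The difference was -0.36 with a SE of 0.065 (limma adjusted p = 0.0213), 1.28-fold lower in EAE, and -0.41, -0.34 and -0.33 within batches. The call was lost when replicate 1, 2 or 3 was left out (adjusted p between 0.0665 and 0.0988) and when the variance prior followed the signal.

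The partner Cntnap1 showed no such difference, with 0.01 (95% confidence interval -0.21 to 0.23, limma adjusted p = 0.968) and EAE arrays from 5.45 to 5.91 against 5.61 to 5.72. Cntn4, a contactin of developing circuits, was lower on every EAE array (4.93 to 5.27) than on any control (5.32 to 5.43) and just missed the threshold at -0.27 (limma adjusted p = 0.0507). Cntn3 read -0.12 (limma adjusted p = 0.307). Whether Cntn1 and Cntnap1 differed from each other was not tested.

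The L1 family, adhesion molecules of growing axons and of nodes, gave no call on 4 probe sets. L1cam was lower on most EAE arrays (4.71 to 5.05) than on the controls (5.03 to 5.17), with a difference of -0.26 (limma adjusted p = 0.0837). Nrcam, which gathers sodium channels at nodes, read -0.04 (limma adjusted p = 0.874). Chl1, a relative of L1 that neurons and reactive astrocytes make, had the largest positive difference of all members and the widest error. Its probe set 103088_at read 8.33, 7.70, 7.05, 7.42 and 7.10 in EAE and 7.08, 7.52 and 6.85 in controls. Only EAE arrays 1 and 2 were above every control, and the differences within batches were 1.26, 0.17 and 0.19, which gave 0.54 with a SE of 0.23 (limma adjusted p = 0.187). The other Chl1 probe set (161239_r_at) read 6.48, 6.58, 6.80, 6.98 and 6.76 against 6.74, 6.75 and 6.85, a difference of -0.16 (limma adjusted p = 0.208).

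NCAM proteins bind each other between neurons and glia and carry polysialic acid during repair. None of 5 probe sets passed, and all 5 differences were negative. The brightest Ncam1 probe set (100153_at) read 8.21, 7.99, 8.12, 8.68 and 8.48 in EAE and 8.40, 8.59 and 8.51 in controls, a difference of -0.39 that missed the threshold narrowly (limma adjusted p = 0.0503). EAE arrays 4 and 5, which do not enter that difference, read as high as the controls, and without the batch term Ncam1 was not called either. The other Ncam1 probe sets had -0.18 and -0.03, and Ncam2 had -0.22 and -0.10.

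**Figure D4:**
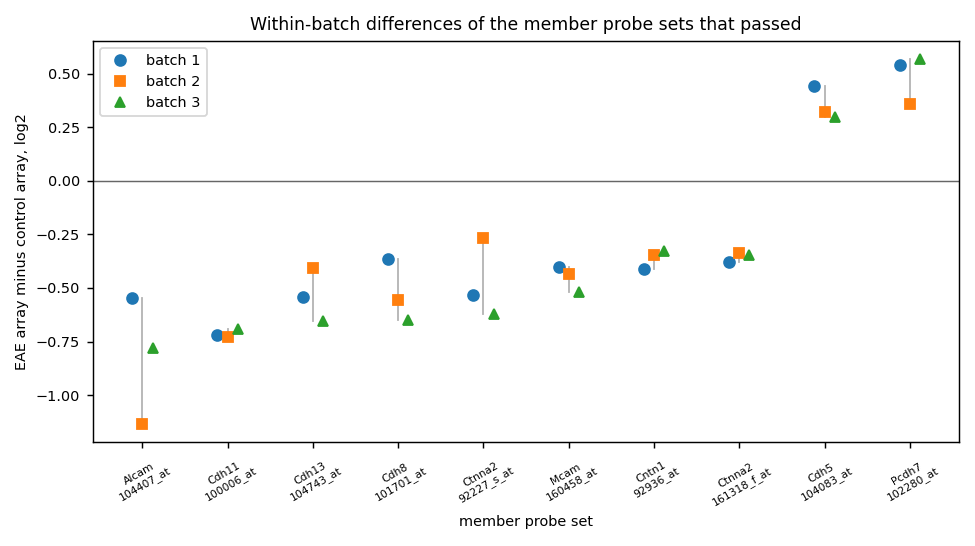
EAE minus control log2 signal within batches 1, 2 and 3 (vertical axis) for the 10 member probe sets that passed the test (horizontal axis). Each point is the difference of 1 EAE and 1 control array, and lines join the batches of a probe set. All 30 points lie on the side of 0 that the fit gave, and they lie closest together for Cdh11 (-0.73 to -0.69) and farthest apart for Alcam (-1.14 to -0.55).

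Promoter sequences are printed for 5 of the called genes so that their start regions can be compared; they were taken from RefSeq on GRCm38.p6 and run 5′ to 3′ from 250 bases before to 50 bases after the start. A window was held for 6 of the 9 called genes, and Cntn1 had 3 windows that are not printed. Capitals mark the E-box letters CANNTG, the site family of basic helix-loop-helix factors, searched on both strands. Of these, CACCTG, which reads CAGGTG from the other strand, is the form that the cadherin repressors Snail and Zeb bind.
Alcam, chr16:52453032-52453331, minus strand: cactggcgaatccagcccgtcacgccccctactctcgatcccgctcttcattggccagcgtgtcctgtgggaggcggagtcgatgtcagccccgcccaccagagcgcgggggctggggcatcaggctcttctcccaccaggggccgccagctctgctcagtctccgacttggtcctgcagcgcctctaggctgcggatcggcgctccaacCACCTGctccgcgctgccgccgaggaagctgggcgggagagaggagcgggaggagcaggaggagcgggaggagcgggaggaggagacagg
Mcam, chr9:44134408-44134707, plus strand: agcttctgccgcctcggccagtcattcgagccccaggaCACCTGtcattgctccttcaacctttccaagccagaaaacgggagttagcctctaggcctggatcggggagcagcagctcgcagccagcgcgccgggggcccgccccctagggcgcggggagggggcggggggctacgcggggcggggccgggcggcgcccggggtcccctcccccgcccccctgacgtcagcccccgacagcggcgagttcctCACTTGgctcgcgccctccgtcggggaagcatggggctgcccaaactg
Cdh8, chr8:99416422-99416721, minus strand: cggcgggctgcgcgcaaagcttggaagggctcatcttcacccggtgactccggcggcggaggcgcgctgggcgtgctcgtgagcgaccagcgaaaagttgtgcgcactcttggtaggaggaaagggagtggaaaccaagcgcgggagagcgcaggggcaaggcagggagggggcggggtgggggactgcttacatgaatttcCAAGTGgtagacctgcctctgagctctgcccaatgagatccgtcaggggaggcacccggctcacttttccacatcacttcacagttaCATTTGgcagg
Ctnna2, chr6:77979618-77979917, minus strand: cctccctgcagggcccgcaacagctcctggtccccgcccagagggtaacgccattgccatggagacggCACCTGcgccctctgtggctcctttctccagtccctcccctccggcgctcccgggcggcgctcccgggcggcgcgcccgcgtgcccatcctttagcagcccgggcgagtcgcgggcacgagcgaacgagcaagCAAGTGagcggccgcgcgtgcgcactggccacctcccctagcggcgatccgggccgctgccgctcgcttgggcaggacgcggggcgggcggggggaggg
Pcdh7, chr5:57717831-57718130, plus strand: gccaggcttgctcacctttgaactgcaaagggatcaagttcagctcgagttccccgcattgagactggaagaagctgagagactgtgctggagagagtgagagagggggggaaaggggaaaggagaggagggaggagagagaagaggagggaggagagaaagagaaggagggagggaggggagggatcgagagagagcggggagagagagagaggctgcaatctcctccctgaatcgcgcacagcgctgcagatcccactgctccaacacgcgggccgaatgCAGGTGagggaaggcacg

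Most of these windows were rich in CG. Alcam held 25 CG pairs, Mcam 29, Cdh8 21, Ctnna2 38 and Pcdh7 11, against a median of 7 and quartiles of 3 and 20 over 32851 windows of the same length. Letters fitting CANNTG were in 6 of the 8 windows of called genes and in 72.3% of all windows, and in 19 of the 28 windows that 21 member genes had. CACCTG, itself a form of CANNTG, was in 4 of the 8, namely Alcam, Mcam, Ctnna2 and Pcdh7, in 5 of the 28 and in 20.2% of all windows. Genes that fell and the gene that rose both had it, and a match of letters does not show that a factor binds.

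Members also lay side by side in the genome. On chromosome 8 of GRCm38.p6, Cdh8, Cdh11 and Cdh5 follow each other with 0 coding genes between them, and of these neighbours Cdh8 and Cdh11 were lower and Cdh5 higher in EAE. The same chromosome held 8 member genes in all: Cdh16, Cdh3 and Cdh1 further along were not called, Cdh13 was lower and Cdh15 was not called. On chromosome 15, Cdh6, Cdh9 and Cdh10 are likewise neighbours, with differences of -0.21, 0.00 and -0.42 and no call. Neighbouring cadherin genes thus did not share 1 direction.

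Partners of the members were described from lists of other genes, each by its brightest probe set. Over all 8251 genes taken in this way, 9.19% rose and 13.5% fell, and no list was tested against them. Of 28 measured partners of adherens junctions and desmosomes, 4 rose and 2 fell, with a median of -0.04. The scaffold Iqgap1, which binds cadherin and catenin complexes, rose by 1.45 on the log2 scale (limma adjusted p = 0.000594), the phosphatase Ptpn1 by 1.43 (limma adjusted p = 0.000577) and the junction molecule F11r by 0.77 (limma adjusted p = 0.0134). The plakophilin Pkp4 fell by 0.50 (limma adjusted p = 0.0190). Of 29 regulators of beta-catenin, 0 rose and 4 fell, with a median of -0.11: the coactivators Crebbp (-0.57, limma adjusted p = 0.00849) and Smarca4 (-0.57, limma adjusted p = 0.0419), the destruction complex scaffold Apc (-0.44, limma adjusted p = 0.0251) and Dvl1 (-0.37, limma adjusted p = 0.0280).

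Of 35 measured partners of the neural adhesion molecules, 11 fell and 1 rose, and their median was -0.32. The one that rose was tenascin C (Tnc), a matrix protein of reactive tissue that contactins bind, by 1.35 (limma adjusted p = 0.00474). Brevican (Bcan), a matrix proteoglycan around neurons, fell by 1.27 (limma adjusted p = 0.00411), the synaptic adaptor Apba2 by 0.94 (limma adjusted p = 0.00828) and the nodal sodium channel Scn8a by 0.80 (limma adjusted p = 0.0399). Of 31 proteases, protease subunits and protease-like proteins, several of which are known to cut adhesion molecules from the cell surface, 7 rose and 2 fell. Their median was 0.10. Ctss, a lysosomal protease of macrophages, rose by 2.48 (limma adjusted p = 0.000421), Mmp12 by 1.28 (limma adjusted p = 0.0118), Adam8 by 1.15 (limma adjusted p = 0.00696) and Mmp14 by 0.74 (limma adjusted p = 0.0282).

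Markers of the cell types of the cord moved with the groups. Fewer cells of a type and less RNA per cell cannot be told apart in tissue RNA. Of 21 neuronal markers measured, 9 fell and 0 rose, with a median of -0.49, and their mean log2 signal was 8.01 to 8.40 on the EAE arrays and 8.71 to 8.85 on the controls. Slc32a1, the carrier that loads GABA and glycine into vesicles, fell by 0.84 (limma adjusted p = 0.00280) and the glutamate receptor Gria1 by 0.74 (limma adjusted p = 0.00496). Among the members of neurons or axons, Cdh8, Ctnna2 and Cntn1 fell on the same arrays. Others did not: Cdh2, Cdh4, Cdh10, Ctnnd2, Cntnap1, Nrcam, Chl1 and Ncam1 were not called. Pcdh7 rose on 1 of its 2 probe sets. The part of the neuronal markers in the fall of Cdh8, Ctnna2 and Cntn1 was not tested.

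Endothelial markers did not move as 1 group beside Cdh5. Of 14 measured, 3 rose and 2 fell, with a median of 0.02, and their mean was 6.60 to 6.73 in EAE and 6.46 to 6.51 in controls. Without Vwf, a choice made after seeing the values, it was 6.52 to 6.62 in EAE and 6.51 to 6.60 in controls over 13 markers. Vwf, the clotting factor of endothelium, rose by 2.17 (limma adjusted p = 0.000421) and Ltbp4 fell by 0.78 (limma adjusted p = 0.0125). The remaining calls, named after their values were seen, were Slc2a1 at 0.61, Eng at 0.39 and Abcb1a at -0.33, and the defining marker Pecam1 had a difference of -0.03 (limma adjusted p = 0.858). The part of endothelial content in the Cdh5, Alcam and Mcam differences was not tested.

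All 17 macrophage and microglia markers measured rose, with a median of 2.57, and their mean was 8.25 to 8.83 in EAE and 5.93 to 6.07 in controls. Of 12 T cell markers, 5 rose and 0 fell, led by Cd2 at 0.67 and Cd3e at 0.66, whereas Cd6, the partner of Alcam, read 0.07 (limma adjusted p = 0.632). Of 15 markers of meninges and fibroblasts, cells that also make Cdh11, 3 rose and 0 fell, among them Igfbp2 at 1.24 and Dcn at 1.15. Their mean was 6.61 to 6.81 in EAE and 6.36 to 6.49 in controls with a median difference of 0.11, and 12 of the 15 were not called. The part of these cells in the Cdh11 difference was not tested. Of 11 astrocyte markers 4 fell and 1 rose, with Ntsr2 at -1.11 and Gfap at 0.74, and of 8 markers of mature oligodendrocytes 2 fell and 0 rose, with Ugt8a at -1.63 and Mog at -0.89. Of 4 oligodendrocyte progenitor markers 2 fell and 1 rose, with Nkx2-2 at -0.62 and Sox10 at -0.55. Egr2 rose by 0.73 among 3 Schwann cell markers, Krt10 fell by 0.50 among 10 of epithelia, and none of 4 ependymal markers was called.

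**Figure D5:**
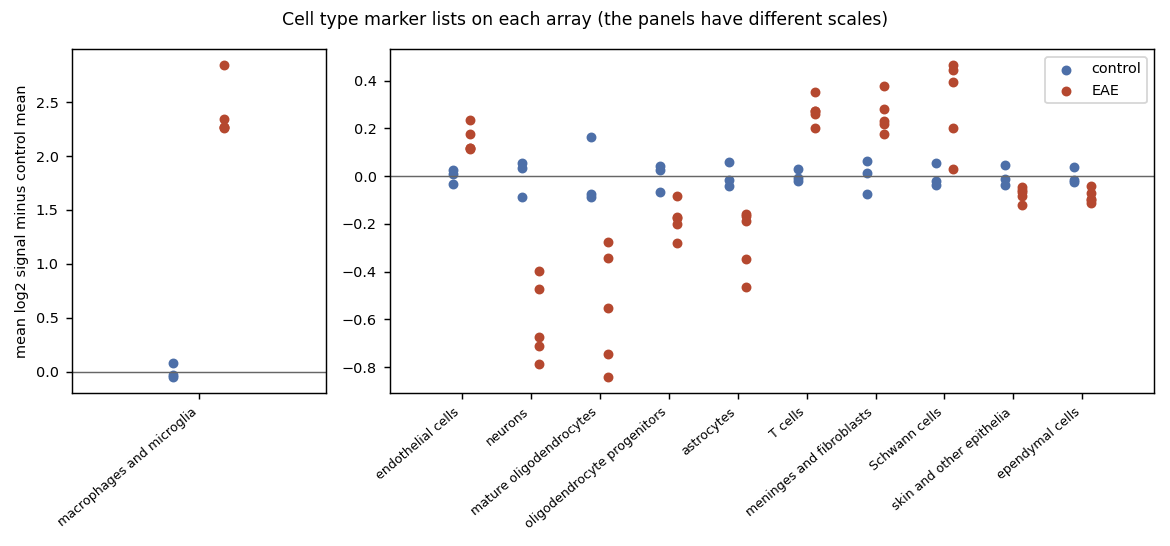
Mean log2 signal of each cell type marker list on each array, minus the mean of the 3 control arrays (vertical axes, with a wider scale in the left panel), by cell type (horizontal axis). Points are arrays, blue for control and red for EAE. Macrophage and microglia markers are 2.26 to 2.85 higher on the EAE arrays, neuronal markers differ by -0.79 to -0.40 and endothelial markers by 0.11 to 0.23, which rests on Vwf.

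RNA quality varied among the EAE arrays. For Gapdh, the log2 signal at the 3′ end less that at the 5′ end, which grows as RNA is degraded or copied short, was 1.46, 0.65, 0.46, 2.07 and 0.78 on EAE arrays 1 to 5 and 0.53, 0.97 and 0.93 on the controls. For beta-actin it was 2.35, 1.63, 1.11, 2.79 and 1.83 against 2.20, 2.29 and 1.62. EAE arrays 4 and 1 stood highest on both. EAE array 4 was also the lowest array for Cntn1, but it adds no weight to the fitted differences. EAE array 1 does enter them. It read 1.46 for Gapdh and 2.35 for beta-actin, against 0.53 and 2.20 on control array 1 of the same batch. The part of RNA quality in the fitted differences was not tested.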

How the data were processed

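The authors deposited log2 signals, 1 for each probe set and array, made in Partek Genomics Suite by RMA with quantile normalization and a correction for GC content. The versions are not given in the sources used here. These values were used as deposited. Quantile normalization makes the arrays alike in distribution, so differences are relative to the other probe sets, and RMA compresses differences of dim probe sets. The 66 control probe sets were dropped, and dim probe sets were kept.

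Groups, batches and ages came from the labels; the study's array methods give only the lower end of the age range. Each probe set had a linear model with treatment and batch as fixed terms (limma 3.58.1, R 4.3.3; 2 residual and 3.05 prior degrees of freedom; two-sided; Benjamini-Hochberg over 12422 probe sets, threshold 0.05). The code of the fit was checked on simulated data, with a pass condition only for changes larger than that of any called member. That check does not speak for differences of the size seen in the members. The batch pairs arrays of the same number; deviations from the group means of paired arrays correlated at 0.302, -0.231 and 0.412 in batches 1, 2 and 3. Samples are pools of 2 mice, and nothing says whether pools came from separate litters or cages, so p values speak only for these pools. They rest on the spread of the EAE minus control differences among batches 1, 2 and 3, with 2 residual degrees of freedom. That spread was combined with a prior variance drawn from all probe sets, with 3.05 degrees of freedom. EAE arrays without a control in their batch add nothing to either, so p values do not measure the spread between all pools. Controls received vehicle only, and the sources used here do not say whether that vehicle held the adjuvant or pertussis toxin.

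Probe sets were named from the platform annotation, which is dated: 10833 had 1 symbol, 396 several and 1193 none. All 52 members matched the RefSeq gene table of GRCm38.p6 by Entrez identifier, with 0 symbols changed. No genome build is named for the probe sets, so gene order and promoter windows come from that table alone.

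The members, the families, the 4 partner lists and the 11 marker lists were chosen with earlier results of these data known. Every member gene could be named; values on each array are given for called members and for genes whose probe sets disagree; of each partner list up to 4 called genes with the largest differences were named, and of each marker list up to 2, with exceptions stated. No set test was run. The other settings tried were a fit without batch, batch as random, unmoderated variances, a variance prior that followed the signal or was robust, arrays centred on their medians or quantile normalized again, weighted arrays, only the brighter probe sets, a threshold of 0.01, the mean of a gene's probe sets, and each array left out. Figures were drawn with matplotlib 3.10.9.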

Additional observations from a re-analysis of the deposited data

Results flagged for a closer look

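In 6 of the 52 member probe sets, 1 of the 5 EAE arrays stood apart from the other 4 by Dixon's test at the 95% level, where chance gives about 1 in 20. EAE array 3 was the lowest for Cdh8 (101701_at), at 5.068 against 5.283 to 5.35 on the other EAE arrays, and for Nrcam, at 7.465 against 7.885 to 7.999. It was the highest for Cntnap1, at 5.907 against 5.449 to 5.571, and for L1cam, at 5.05 against 4.712 to 4.801. EAE array 4 was the lowest for Cntn1, at 9.434 against 9.824 to 9.975. EAE array 2 was the highest for Ncam2 (96581_at), at 5.856 against 5.286 to 5.395. EAE array 3 came from the latest disease day of the series, day 17. Of these 6 probe sets, Cdh8 and Cntn1 had passed the test, and the batch 3 difference of Cdh8 (-0.65) was the largest of its 3. The causes were not tested.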

How the results depend on the processing

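The fit with the batch as replicate block called 2 members higher and 8 lower, beside 1026 and 1412 of all probe sets, and without the block 2 and 11, beside 1062 and 1278, with 9 member calls shared. With batch as a random block the member counts were 2 and 12 (all probe sets 1205 and 1657), with an intensity trend 2 and 11 (1082 and 1365), with median centring 2 and 12 (970 and 1710), with a further quantile normalization 2 and 9 (993 and 1204), with array weights 2 and 9 (1026 and 1436) and with a robust prior 2 and 8 (1012 and 1391). With brighter probe sets only, 1 member was higher and 7 lower (714 and 1233). At an adjusted p under 0.01, 0 members were higher and 1 lower, against 540 and 290 of all probe sets. The model without variance moderation called 0 members higher and 0 lower, and 1 and 0 of all probe sets. Leaving out 1 array gave 0 to 2 members higher and 1 to 8 lower, and 521 to 1026 and 225 to 1412 of all probe sets; EAE arrays 4 and 5 changed nothing, and with any of the other arrays out only 1 residual degree of freedom was left. At the brightest probe set of each gene, 2 member genes were higher and 6 lower, beside 758 and 1116 of all 8251 genes. Ctnna2 was not called there, since its brightest probe set did not pass. With the mean of a gene's probe sets, 1 member gene was higher and 8 lower, with Ctnna2 and Cntn4 among those lower. Counts over all genes are not given for that setting. No called member changed sign under any of these settings. Of the uncalled members, 17 changed sign in 62 values, the largest 0.135 in size, and 6 were called lower in some setting: Pcdh7 (101796_at), Cntn4, Cdh10, L1cam, Ctnna2 (92228_at) and Ncam1 (100153_at). The causes were not tested.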
